A study of Mus musculus with 6 samples.

Results

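The genes described here are 10 marker genes of the mesothelium and of simple keratins, namely Msln, Upk3b, Upk1b, Wt1, Lrrn4, Gpm6a, Krt19, Krt8, Krt18 and Muc16. They were taken by symbol from a table of 53735 genes. All 10 were found, and all 10 passed the filter for testing, a mean of at least 10 normalized counts, which 15229 genes passed. Poly(A)-selected RNA was sequenced from primary mouse lung endothelial cells, cultured to confluence without passage or treatment. There were 4 libraries labelled ZMPSTE24 knockout and 2 labelled ZMPSTE24 wild type, here named by genotype and by the number in the title. In the text, "wild type 1" and "wild type 2" are libraries, and Wt1 is the Wilms tumour gene. Per the series design text, cells were sorted with magnetic beads against CD31 and ICAM2, and the stated endothelial purity was above 99%. The mouse line is described as ZMPSTE24 wild type or knockout, with no deleted exon, strain, age or sex in the labels. Samples came from 2 cohorts of mice, which the labels do not assign to libraries. The labels do not tie libraries to separate mice, so the p-values below reflect only library-to-library spread, and that spread may be technical.

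The mesothelium is the flat epithelial sheet that covers the lungs and lines the body cavities. Its cells carry a surface coat, rest on a basement membrane and keep an intermediate filament network of simple keratins, as internal epithelia do. Mesothelin, the product of Msln, is a surface protein that binds the large mucin encoded by Muc16, known in human as CA125. Upk3b and Upk1b encode uroplakins, membrane proteins first known from the bladder lining. Upk1b belongs to the tetraspanin family, and uroplakin 1b is a partner of the uroplakin 3 proteins. Wt1 encodes a zinc finger transcription factor of mesothelium and kidney podocytes. Lrrn4 encodes a leucine-rich repeat membrane protein and Gpm6a a membrane glycoprotein best known from neurons. Keratin 8, a type II keratin, forms filaments with type I keratins such as keratin 18 and keratin 19.

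The annotation places the 10 genes at scattered sites of GRCm38, apart from Krt8 and Krt18, which are neighbours on chromosome 15. Krt8 runs from 101996698 to 102004482 on the minus strand and Krt18 from 102028180 to 102032027 on the plus strand. The 2 genes point away from each other across 23697 bases. Msln lies on chromosome 17 (25748613 to 25754378), Upk3b on chromosome 5 (136038496 to 136046487) and Upk1b on chromosome 16 (38773184 to 38800328). Wt1 (105126529 to 105173616) and Lrrn4 (132868305 to 132880891) are both on chromosome 2. Gpm6a is on chromosome 8 (54954843 to 55060871), Krt19 on chromosome 11 (100140810 to 100148665) and Muc16 on chromosome 9 (18495455 to 18674530). Near-identical copies were found for the keratin pair. A processed pseudogene, Krt8-ps, matches Krt8 at 98.6% over 941 nt and had at most 2.02 normalized counts in any library. Gm5200, a processed pseudogene, matches Krt18 at 90.5% over 1267 nt and was not analysed here. A long noncoding RNA gene on the opposite strand, Gm36026, overlaps exons of Krt8. The library kit named in the design text does not mark strand, so reads of Krt8 and Gm36026 cannot be told apart there. Krt8 and Krt18 values are uncertain to that extent.

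Promoter windows from RefSeq (GRCm38.p6), from 250 bases before to 50 after the start, were matched for 6 of the 10 genes. The windows of Upk3b (chr5:136038246-136038545, plus strand) and Lrrn4 (chr2:132880813-132881112, minus strand) are shown as surface markers. Krt8 (chr15:102004293-102004592, minus strand) and Krt18 (chr15:102027966-102028265, plus strand) are shown because their products assemble together and their counts are compared below. Muc16 (chr9:18674554-18674853, minus strand) is shown as the gene with the widest range over the libraries. Capitals mark matches, on either strand, to 6 motifs: the TATA box (TATAAA), the GC box (GGGCGG), the AP-1 site (TGANTCA), the TEAD site (GGAATG), the GATA site (AGATAA) and the WT1 core (GCGTGGG).
Upk3b: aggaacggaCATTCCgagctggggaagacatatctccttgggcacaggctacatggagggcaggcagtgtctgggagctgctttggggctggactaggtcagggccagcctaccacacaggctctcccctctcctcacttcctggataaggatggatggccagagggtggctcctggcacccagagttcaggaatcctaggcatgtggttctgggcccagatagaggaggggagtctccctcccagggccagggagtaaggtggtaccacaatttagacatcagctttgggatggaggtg
Lrrn4: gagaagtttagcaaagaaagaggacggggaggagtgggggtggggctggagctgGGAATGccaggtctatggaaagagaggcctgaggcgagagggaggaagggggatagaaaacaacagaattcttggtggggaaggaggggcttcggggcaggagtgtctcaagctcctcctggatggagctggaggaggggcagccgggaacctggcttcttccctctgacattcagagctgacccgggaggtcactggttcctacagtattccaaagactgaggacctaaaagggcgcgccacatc
Krt8: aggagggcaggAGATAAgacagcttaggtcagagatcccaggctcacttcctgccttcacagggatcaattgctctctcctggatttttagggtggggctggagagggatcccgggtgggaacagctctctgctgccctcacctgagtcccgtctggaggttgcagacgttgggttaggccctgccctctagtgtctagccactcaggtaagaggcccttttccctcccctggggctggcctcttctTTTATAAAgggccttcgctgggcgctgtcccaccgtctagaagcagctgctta
Krt18: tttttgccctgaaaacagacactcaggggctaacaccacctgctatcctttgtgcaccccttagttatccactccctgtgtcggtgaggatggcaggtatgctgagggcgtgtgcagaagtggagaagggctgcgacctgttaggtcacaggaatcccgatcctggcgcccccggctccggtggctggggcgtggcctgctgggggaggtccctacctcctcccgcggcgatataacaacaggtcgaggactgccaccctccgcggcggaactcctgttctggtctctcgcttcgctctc
Muc16: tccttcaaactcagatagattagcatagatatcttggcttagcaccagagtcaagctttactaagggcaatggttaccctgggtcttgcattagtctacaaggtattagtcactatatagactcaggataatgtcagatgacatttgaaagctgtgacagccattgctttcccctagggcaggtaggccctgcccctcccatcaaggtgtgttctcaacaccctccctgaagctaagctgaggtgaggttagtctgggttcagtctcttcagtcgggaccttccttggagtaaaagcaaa

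The TEAD letters occur once each in the Upk3b window, with their first base at position -241 from the start, and in the Lrrn4 window, at -196. Gpm6a has a pair of windows, not shown, of which one holds a TEAD match at -125 and a GC box and the other a TATA match. Of 32851 promoter windows of this length, 14.7% hold the TEAD letters. The Krt8 window holds overlapping TATA matches at its start site and a GATA match at -239, motifs held by 13.6% and 11.2% of all windows. The Krt18 and Muc16 windows hold none of the 6 motifs, whose other shares are 35.7% for the GC box, 7.81% for the AP-1 site and 5.04% for the WT1 core. That says only that these letters are not in these windows.

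Depth was 36844042 to 45613685 recovered reads in the knockout libraries and 32699024 and 40582588 in the wild type libraries. The targeted gene Zmpste24 had 5079, 3764, 3599 and 3720 normalized counts in knockout 1 to 4, against 5503 and 4148 in wild type 1 and 2. Since no source used here says which exons are missing, this level does not check the genotype. Before the results, a feature of the libraries has to be stated. Knockout 1 and wild type 1 stand apart from the other 4 libraries across many genes, a split that was found in the data and that no label explains. The summed counts of 9 leukocyte and macrophage genes were 4082 in knockout 1 and 26608 to 43012 in knockout 2, 3 and 4, against 5001 in wild type 1 and 32180 in wild type 2. Results are therefore given with and without this split, and no test is made between the 2 sets of libraries.

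Of the 10 genes, 7 had a mean above that of the median tested gene (828 normalized counts) in these cultures labelled endothelial, and Krt8, Krt19 and Muc16 were below it. Msln had 42001, 6908, 4928 and 9087 normalized counts in knockout 1 to 4, against 19487 and 8844 in wild type 1 and 2. Knockout 1 was highest and wild type 1 next, and the genotypes overlapped. Per kilobase of exon, Msln averaged 4964 normalized counts and ranked 273 of 13346 tested genes with a length. By the same per-length measure Upk1b averaged 2851, Lrrn4 1226, Gpm6a 850, Krt18 647 and Upk3b 531. Krt8 followed at 340, Wt1 at 278 and Krt19 at 104, and Muc16, with 26350 nt of annotated exon, was lowest at 18.1. Krt19 ranked 8958 and Muc16 11648 on this scale. The spread over libraries is wider than most of these steps, so neighbours in this order are not separated beyond it. In bulk RNA, fewer cells of a type and less RNA per cell cannot be told apart.

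**Figure D1:**
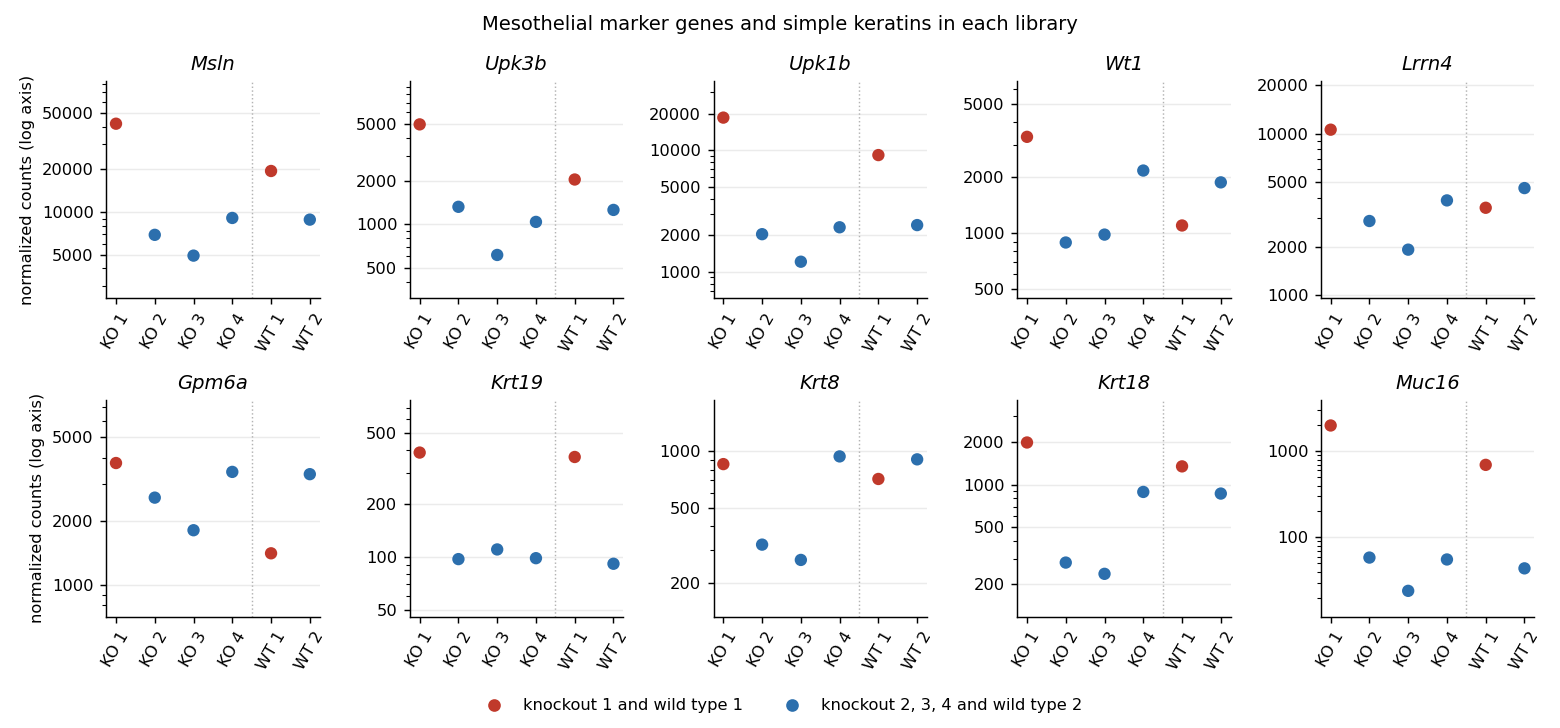
Normalized counts (log axis) of each of the 10 genes in the 4 knockout (KO) and 2 wild type (WT) libraries, 1 point per library. Red points are knockout 1 and wild type 1, blue points the other 4 libraries. Red points lie above all blue points for Msln, Upk3b, Upk1b, Krt19, Krt18 and Muc16, while for Krt8 and Krt18 knockout 2 and 3 are lowest.

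The surface pair of mesothelin and its mucin ligand differed most in range. Muc16 had 1991, 58.4, 24.0 and 55.5 normalized counts in knockout 1 to 4, against 695 and 43.8 in wild type 1 and 2. Its highest library was thus 82.9 times its lowest, compared with 8.52 times for Msln. The lowest value rests on 28 reads, a counting error of 18.9%. Msln stood in ratio to Muc16 at 21.1 in knockout 1 and at 118, 205 and 164 in knockout 2, 3 and 4. In wild type 1 the ratio was 28.0 and in wild type 2 it was 202. These ratios are of counts not scaled by length. Per kilobase of exon they were 181 in knockout 1 and 1017 to 1765 in knockout 2, 3 and 4, against 241 in wild type 1 and 1737 in wild type 2. The mucin gene was therefore scarce beside Msln in 4 libraries and less so in knockout 1 and wild type 1, whatever the genotype.

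The uroplakin genes followed Msln in most libraries. Upk1b had 18587, 2041, 1212 and 2327 normalized counts in knockout 1 to 4, against 9139 and 2425 in wild type 1 and 2. Upk3b had 4956, 1326, 614 and 1042 in the knockout libraries, against 2052 and 1262 in the wild type libraries. Both genes were highest in knockout 1 and lowest in knockout 3. The ratio of Upk1b to Upk3b was 3.75 in knockout 1 and 1.54 to 2.23 in knockout 2, 3 and 4, against 4.45 in wild type 1 and 1.92 in wild type 2.

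The transcription factor gene and the other membrane protein genes had flatter profiles. Wt1 had 3312, 892, 983 and 2179 normalized counts in knockout 1 to 4, against 1101 and 1881 in wild type 1 and 2. Lrrn4 had 10582, 2880, 1915 and 3863 in the knockout libraries, against 3478 and 4604 in the wild type libraries. Wild type 1 was thus below wild type 2 for Wt1 and Lrrn4, the reverse of Msln. Gpm6a had 3784, 2593, 1817 and 3435 counts in knockout 1 to 4, against 1412 and 3350 in wild type 1 and 2. It was the one gene of the 10 that was lowest in wild type 1.

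The 3 keratin genes had different profiles. Krt8 had 855, 320, 266 and 939 normalized counts in knockout 1 to 4, against 713 and 906 in wild type 1 and 2. Krt18 had 1970, 284, 237 and 887 in the knockout libraries, against 1340 and 864 in the wild type libraries. Knockout 2 and 3 were low for both, and knockout 4 and wild type 2 were close to each other. Krt19 had 389, 96.7, 110 and 97.9 counts in knockout 1 to 4, against 367 and 91.0 in wild type 1 and 2. Its levels in knockout 2, 3 and 4 and wild type 2 lay within 91.0 to 110, so it did not share the low values of Krt8 and Krt18 in knockout 2 and 3.

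The ratio of Krt18 to Krt8 was nearly constant outside knockout 1 and wild type 1. It was 0.89 in knockout 2, 0.89 in knockout 3 and 0.95 in knockout 4, against 0.95 in wild type 2, although Krt8 itself ranged from 266 to 939 counts over these libraries. In knockout 1 the ratio was 2.31, against 1.88 in wild type 1. Per kilobase of exon, Krt18 and Krt19 together stood to Krt8 at 3.62 in knockout 1 and 1.40 to 1.65 in knockout 2, 3 and 4. The same ratio was 3.11 in wild type 1 and 1.41 in wild type 2. These are ratios within a library, described without a test.

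**Figure D2:**
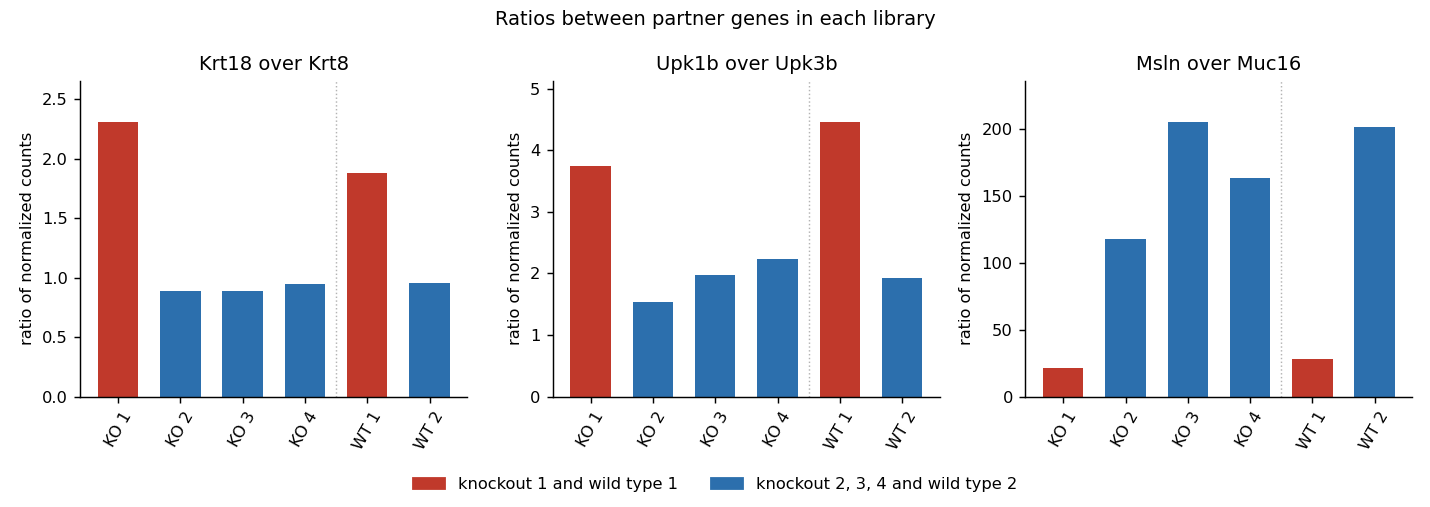
Ratios of normalized counts between partner genes in each knockout (KO) and wild type (WT) library, 1 bar per library and no replicate error. Red bars are knockout 1 and wild type 1. Krt18 over Krt8 is 2.31 and 1.88 there and 0.89 to 0.95 in the other 4 libraries, and Msln over Muc16 is 21.1 and 28.0 there and 118 to 205 in the others.

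The study's own comparison is knockout against wild type, and none of the 10 genes passed it. With limma on log2(normalized count + 1), fitted over 15229 genes, 0 of the 10 were called at a Benjamini-Hochberg adjusted p below 0.05, and 0 had an unadjusted p below 0.05. Across all tested genes 1 was called, a share of 0.00657%, and 143 had an unadjusted p below 0.05. Msln averaged 15731 ± 17596 normalized counts in knockout (SD, n = 4) and 14165 ± 7526 in wild type (SD, n = 2). Its log2 difference was -0.30 ± 0.89 (SE; 95% interval -2.48 to 1.88; limma adjusted p = 1.00), opposite in sign to the difference of the means. The largest difference was that of Krt18, at 844 ± 807 counts in knockout (SD, n = 4) and 1102 ± 337 in wild type (SD, n = 2). Its log2 difference was -0.88 ± 0.90 (SE; 95% interval -3.09 to 1.33; limma adjusted p = 1.00). Krt8 differed by -0.65 ± 0.59 and Muc16 by -0.63 ± 2.00 (log2, SE). Gpm6a differed by 0.36 ± 0.44 and Wt1 by 0.14 ± 0.60. The other 4 lay between -0.55 for Upk1b and -0.05 for Lrrn4. The median of the 10 was -0.33, with 2 above 0 and 8 below, beside a median of 0.00 over all tested genes. Single libraries moved this median: limma gave -0.87 without knockout 1, 0.08 without knockout 3 and -0.69 without wild type 2, against -0.03 without wild type 1. The groups overlapped in all 10 genes, so 0 of 10 separated the genotypes, compared with 4.68% of tested genes.

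Other tools made no call among the 10 either. EdgeR on the recovered reads called 0 of the 10 and 0.00657% of all genes. DESeq2 called 0 of the 10 and 0.046% of all, but gave no adjusted p for Upk1b and Muc16, which it therefore did not judge. At an unadjusted p below 0.05 edgeR also had 0 of the 10, and DESeq2 0 of those with a p. Unlike limma, edgeR and DESeq2 by genotype alone gave medians above 0 over the 10, 0.21 and 0.20, each with 7 genes above 0 and 3 below. With the library set as a term, limma called 0.00657% of all genes, edgeR 0.0131% and DESeq2 0.328%. None of these 3 fits called any of the 10, and the smallest unadjusted p of a member in them was 0.161, in edgeR. With that term limma gave a median of 0.21 over the 10, with 8 above 0 and 2 below. The sign of the median thus depended on the tool as well as on the term. Msln then differed by 0.21 ± 0.40 and Muc16 by 0.59 ± 0.52 (log2, SE). Krt8 and Krt18 were below 0 in both fits, at -0.54 ± 0.61 and -0.46 ± 0.67 with the term. Krt19 had the narrowest interval, a log2 difference of 0.12 ± 0.15 (SE; 95% interval -0.25 to 0.50). Intervals of the other 9 reached at least 0.99 above 0 and at least 0.73 below it, so differences of that size were not excluded here.

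**Figure D3:**
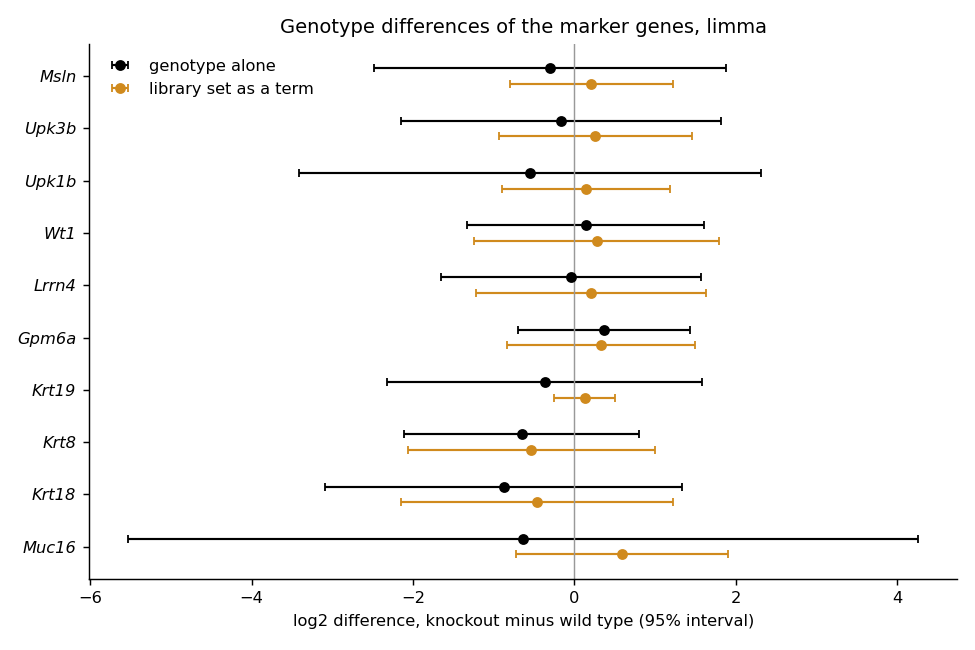
Log2 difference of each gene, knockout minus wild type, with its 95% interval from limma, over 4 knockout and 2 wild type libraries. Black points are the fit with genotype alone and orange points the fit with the library set as a term. Every interval crosses 0. With the term the intervals of Msln, Upk3b, Upk1b, Lrrn4, Krt19, Krt18 and Muc16 are narrower, and those of Wt1, Gpm6a and Krt8 slightly wider.

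Within the sets the knockout libraries did not move together. Knockout 1 was above wild type 1 in 10 of 10 genes, by a median log2 of 1.19, from 0.08 for Krt19 to 1.61 for Lrrn4. Knockout 2 was below wild type 2 in 7 of 10, at a median of -0.36. Knockout 3 was below it in 9 of 10, at a median of -0.97, and Krt19 was the exception. Knockout 4 was above it in 7 of 10, at a median of 0.04. Over all tested genes these 4 medians lay between -0.02 and 0.01. Each is a difference between 2 libraries, and 3 of them share wild type 2, so there is no replicate error and no test. Summed over the 10 genes, counts were 88427, 17398, 12105 and 23911 in knockout 1 to 4, against 39785 and 24271 in wild type 1 and 2.

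Between the sets, 6 of the 10 genes were higher in both knockout 1 and wild type 1 than in every other library. These were Msln, Upk3b, Upk1b, Krt19, Krt18 and Muc16. In the same comparison 30.7% of all tested genes lay wholly above and 32.7% wholly below, so a gap between these sets is common. The difference of mean log2 was 4.74 for Muc16, 2.75 for Upk1b, 1.98 for Msln, 1.93 for Krt19, 1.77 for Krt18 and 1.65 for Upk3b. Lrrn4 at 0.95, Krt8 at 0.59, Wt1 at 0.47 and Gpm6a at -0.23 had overlapping sets. Other cell type lists moved along the same split. Of 7 contractile genes 6, and of 15 endothelial genes 13, lay wholly above in knockout 1 and wild type 1. Of 9 leukocyte and macrophage genes 8 lay wholly below. Of 9 fibroblast genes 5 lay wholly below and 2 wholly above. Their part in the mesothelial values was not tested.

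A list of 25 further mesothelial and serosal genes did not follow the 10 as a block. Between the sets 4 were wholly higher in knockout 1 and wild type 1, and 6 wholly lower, with a median log2 difference of -0.04. Over all tested genes 30.7% were wholly higher and 32.7% wholly lower, so neither count exceeds its share. Ezr, which encodes the membrane-to-actin linker ezrin, had 53963, 6774, 6583 and 12831 normalized counts in knockout 1 to 4, against 24462 and 11569 in wild type 1 and 2. Has1, a hyaluronan synthase gene, had 98.6 counts in knockout 1 and 4.56 to 19.2 in knockout 2, 3 and 4, against 39.8 in wild type 1 and 13.8 in wild type 2. Pdpn, the podoplanin gene, also a lymphatic endothelial marker, had 12158 counts in knockout 1 and 4795 to 7463 in knockout 2, 3 and 4, against 11184 in wild type 1 and 7906 in wild type 2. In the opposite direction, Aldh1a2, which encodes a retinoic acid synthesis enzyme, had 1589, 2138, 2577 and 3285 counts in knockout 1 to 4, against 670 and 3633 in wild type 1 and 2. Calb2, the calretinin gene and a mesothelial marker of human pathology, had 11.3 counts in knockout 1 and 18.2 to 61.6 in knockout 2, 3 and 4, against 7.33 in wild type 1 and 31.1 in wild type 2. Bnc1, the basonuclin gene, had 1969, 1580, 1412 and 3228 counts in knockout 1 to 4, against 799 and 3043 in wild type 1 and 2, so its sets overlapped. The genes furthest below 0 between the sets were Rarres2, Tcf21 and Prg4, with differences of mean log2 of -4.29, -3.58 and -2.62. Tcf21 is also in the fibroblast list. Has1, Aldh1a2, Calb2, Bnc1, Rarres2, Tcf21 and Prg4 were chosen for naming after their values were seen.

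**Figure D4:**
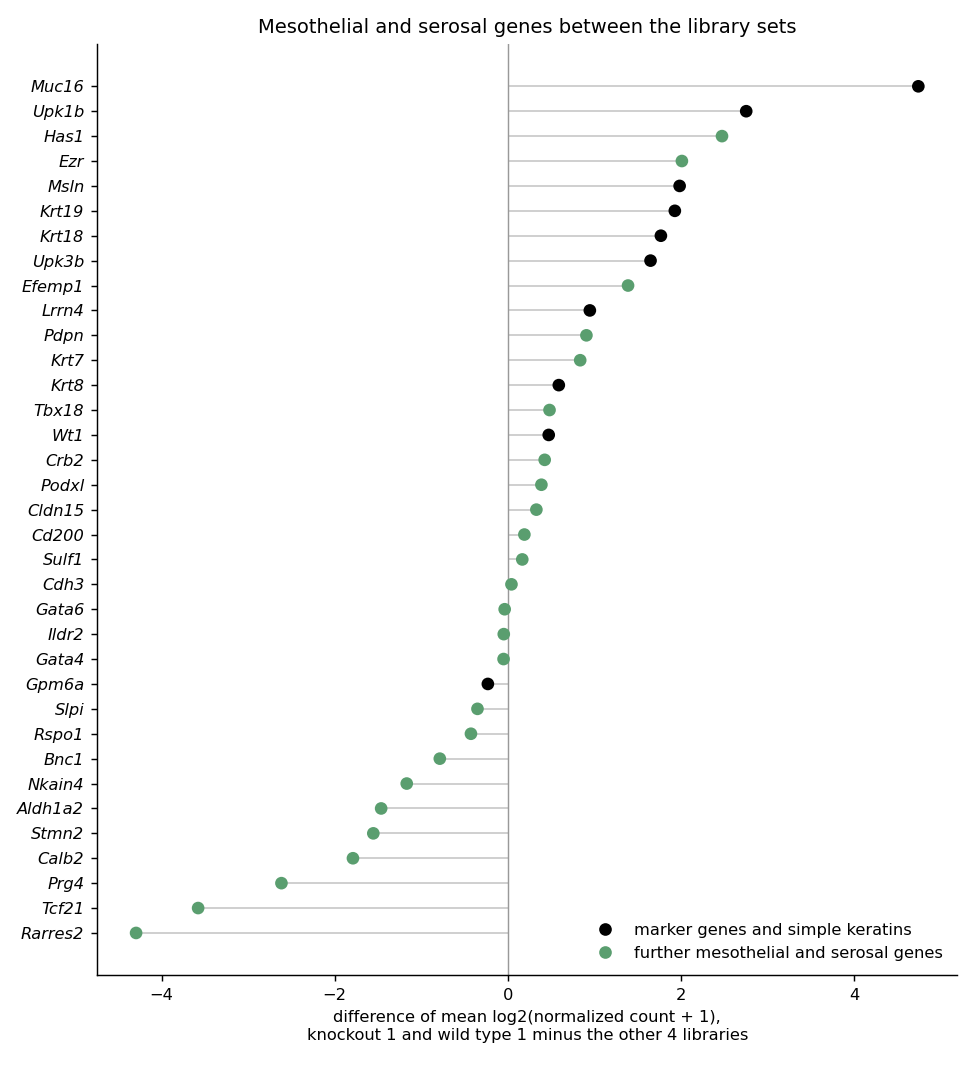
Difference of mean log2(normalized count + 1), knockout 1 and wild type 1 minus the other 4 libraries, for the 10 marker genes (black) and 25 further mesothelial and serosal genes (green), with 1 point per gene. Muc16 is at 4.74 and Upk1b at 2.75, while Gpm6a is at -0.23. Of the further genes, Aldh1a2 is at -1.46, and the lowest are Rarres2 at -4.29, Tcf21 at -3.58 and Prg4 at -2.62. Tcf21 is also in the fibroblast list.

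Against genotype, 0 of the 25 further genes were called by limma, edgeR or DESeq2, in the fits by genotype alone or in those that also held the library set. At an unadjusted p below 0.05 limma had 0 and DESeq2 1 by genotype alone, and 1 and 2 with the set in the model. Over all 15229 genes the same counts were 143 and 218 by genotype alone, and 535 and 557 with the set. Limma with genotype alone gave 17 above 0 and 8 below, at a median log2 of 0.20. Like the 10 marker genes, most were above wild type 1 in knockout 1, 23 of 25 at a median of 1.04. Knockout 2 and 3 had 16 and 18 of 25 below wild type 2, at medians of -0.22 and -0.49, and knockout 4 had 12 below, at 0.03. Sulf1, a heparan sulfate sulfatase gene and the second most abundant of the list after Ezr, differed by 0.20 ± 0.20 (log2, SE).

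The keratin members were set beside a list of 8 other keratin genes. Besides Krt8, Krt18 and Krt19, the simple keratin gene Krt7 had 993, 523, 310 and 451 normalized counts in knockout 1 to 4, against 536 and 381 in wild type 1 and 2. Krt20 had 381 counts in knockout 1 and 17.3 to 33.4 in knockout 2, 3 and 4, against 476 in wild type 1 and 94.5 in wild type 2. Krt80 had 152 to 364 counts in knockout libraries, against 112 and 384 in wild type libraries. Krt5, Krt14, Krt15 and Krt17, keratins of stratified and basal epithelia, had at most 5.14 counts in any library and were below the filter. Of the 4 tested genes among 8 other keratins, 0 were called against genotype.

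Lung epithelial genes were checked beside the keratins, since both tissues use keratins 8, 18 and 19. Epcam, the surface antigen of most epithelia, had 1.03 to 6.06 normalized counts in knockout libraries, against 2.09 and 2.30 in wild type libraries. Cdh1, the E-cadherin gene, had 30.1 to 43.7 counts in knockout libraries, against 17.8 and 31.1 in wild type libraries. Surfactant gene Sftpb was at 0 in knockout 1 and at 87.8 to 280 in knockout 2, 3 and 4, against 1.05 in wild type 1 and 145 in wild type 2. Of 23 epithelial genes, 6 were at 0 in both knockout 1 and wild type 1. Of the 13 tested, 8 lay wholly lower in these 2 libraries and 2 wholly higher, beside 32.7% and 30.7% of all tested genes. Those higher were Abca3 and Aqp5, an aquaporin gene with 37.0 counts in knockout 1 and 28.3 in wild type 1, and 14.1 to 17.1 in the other 4 libraries. The part of epithelial cells in the keratin values was not tested. The summed list had 3166 to 4965 counts in knockout libraries, against 3634 and 5048 in wild type libraries. Most of that sum was Abca3, a lipid transporter gene that other cells can express, at 2686 to 4746 counts in knockout and 3047 and 4883 in wild type libraries. Muc1, an epithelial mucin gene, had 44.2 to 110 counts in knockout libraries, against 30.4 and 78.3 in wild type libraries.

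Genes of the labelled cell type were expressed throughout, as were those of other lists. All 15 endothelial genes had at least 50 normalized counts in every library, with sums of 45711 to 124539 in knockout libraries, against 72998 and 209964 in wild type libraries. All 7 contractile genes, 8 of 9 fibroblast genes and 9 of the 10 marker genes also met that level. Contractile genes summed to 59724 to 221871 counts in knockout libraries, against 65524 and 238715 in wild type libraries. The endothelial cadherin gene Cdh5 had 13135 to 33414 counts in knockout libraries, against 18632 and 62133 in wild type libraries. Msln exceeded Cdh5 in knockout 1 alone, in counts not scaled by length. Emcn, the endomucin gene, had 3340 to 20466 counts in knockout libraries, against 5667 and 32022 in wild type libraries. Limma called 0 of the 15 against genotype, with 0 above 0 and 15 below, at a median log2 of -0.76. With the library set in the model the limma median was -0.46, with 1 above 0 and 14 below. DESeq2 then called 2 of the 15, beside 0.328% of all tested genes. Fibroblast genes summed to 406958 to 470825 counts in knockout libraries, against 433799 and 478448 in wild type libraries, and 0 of 9 were called. Most of that sum was the collagen genes Col1a1, Col1a2 and Col3a1, so it does not show how the other fibroblast genes moved. Of 6 lymphatic endothelial genes, which include Pdpn, limma by genotype alone called 0, at a median log2 of -1.19, all 6 below 0. With the set in the model that median was -0.97, and DESeq2 then called 2 of the 6, again beside 0.328% of all tested genes. In the same model limma and edgeR called fewer genes over the whole table, 0.00657% and 0.0131%.

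Genes whose profile over the 6 libraries came closest to Msln were named by the root mean square difference of log2 values, each centred on its own mean. Among 12038 genes with a mean of at least 50 counts the median of this measure was 1.05. Tmem151a, a transmembrane protein gene, was nearest at 0.11, with 2191, 415, 310 and 601 normalized counts in knockout 1 to 4, against 1267 and 559 in wild type 1 and 2. Ezr was next at 0.17, then Akr1c14, a hydroxysteroid dehydrogenase gene, at 0.18. Fgd3, an exchange factor gene for small GTPases, was at 0.20. Wnt2, which encodes a secreted Wnt ligand, Star, a cholesterol transport gene of steroid synthesis, and Mirt1 were at 0.22. Among the 10 genes themselves, Upk3b was nearest to Msln at 0.28 and Upk1b followed at 0.37. Krt19 was at 0.47, Krt18 at 0.50 and Lrrn4 at 0.53. Wt1 at 0.78, Krt8 at 0.82, Gpm6a at 1.05 and Muc16 at 1.33 were further away. The measure counts the size of a swing as well as its shape. Muc16, like Msln, was highest in knockout 1, next in wild type 1 and lowest in knockout 3, but over a wider range. This likeness rests on 6 libraries in 2 sets and is a description only.

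**Figure D5:**
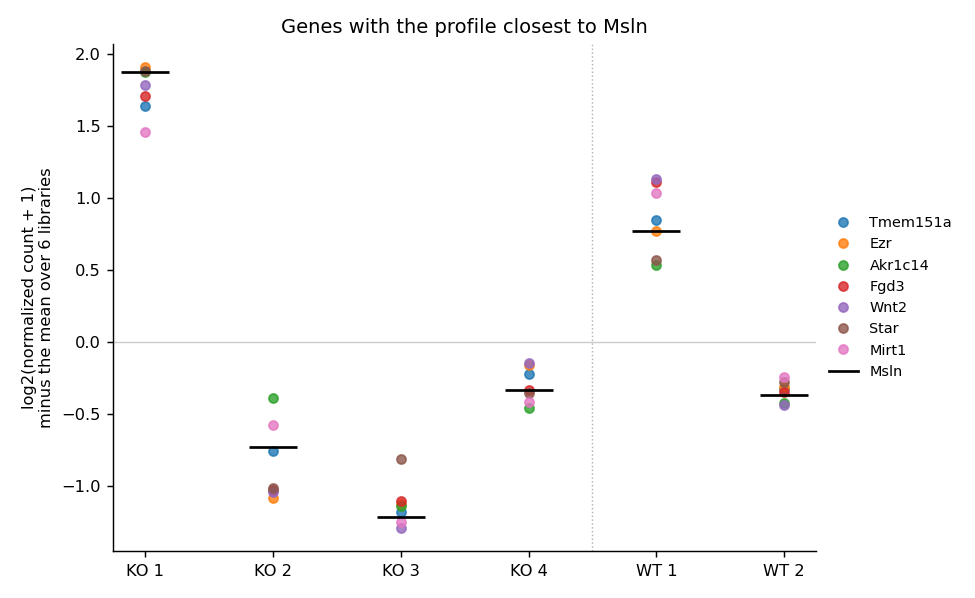
Log2(normalized count + 1) minus its mean over the 6 libraries for 7 of the genes closest to Msln (coloured points) and for Msln (black bars), by knockout (KO) and wild type (WT) library. All 8 profiles are highest in knockout 1 and next highest in wild type 1.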

How the data were processed

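The authors deposited a normalized count signal per gene and library, which are reads scaled by 1 factor per library. The submitters' processing notes list Trimmomatic 0.36, STAR 2.6.0c, Subread 1.6.1 with featureCounts, and the build GRCm38.p6. In contrast, the design text names Trimmomatic 0.32, STAR 2.4.2a, HTSeq with GENCODE M17 and DESeq2 1.10.1, and no source used here says which version applies to the table. In each library 100% of values, multiplied back to reads, came out whole to within 1e-06 of a read, which is how the scaling was found.

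Genes averaging 10 normalized counts or more (15229) entered limma 3.58.1 in R 4.3.3, using lmFit and trended eBayes. Values were log2(normalized count + 1), p-values were adjusted by Benjamini-Hochberg, and the threshold was 0.05. This scale understates changes of low genes. EdgeR 4.0.16 (quasi-likelihood) and DESeq2 1.42.0 were run on the recovered reads. Fits with the library set as a term separate knockout 1 and wild type 1 from the other 4 libraries. Limma by genotype alone, and limma, edgeR and DESeq2 with the set term, were tested on simulated data. The other fits were not. The simulated spread between libraries of a group was a fixed setting, not taken from these libraries. Copies were sought with blastn 2.17.0 in GENCODE M21 transcripts (at least 90% identity over 200 nt), and lengths are unions of M21 exons. Libraries of the same genotype differed by far more than counting noise (chi-square per gene 26.2 to 397), so none was treated as a duplicate.

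The members, the gene lists, the library sets and the tests were chosen with earlier results of these data known. Named genes are the 10 members, the called or otherwise the 3 most abundant genes of each list, and the 8 genes closest to Msln with a mean of at least 50, leaving out predicted genes and clone names. Of these 8, 1 is not reported here. Other list genes named in the text were chosen after their values were seen.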

Additional observations from a re-analysis of the deposited data

Results flagged for a closer look

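In the group of 4 knockout libraries, 40 named genes were examined for a library far from the others, by the gap to the nearest library over the range of the group, against Dixon's 95% critical value for 4 samples. Chance alone gives about 1 in 20 such groups, a share that cannot be set against the count here, since 7 of the 40 were chosen for a profile like that of Msln and all 7 passed with it. Of 16 genes past the limit, knockout 1 was the highest library in 15 and the lowest in 1. Knockout 1 belongs to the set with wild type 1, and in 6 of the 10 marker genes that wild type library was also above the other 4.

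Of the marker genes 5 passed. Muc16 had a gap of 0.983 of the range, Krt19 of 0.955, Upk1b of 0.936, Msln of 0.888 and Upk3b of 0.836. Among genes of the other lists the gap was 0.956 for Krt20, 0.868 for Ezr, 0.928 for Abca3 and 0.888 for Emcn. Muc1 had a gap of 0.866, with knockout 1 as the lowest library. Among the genes chosen for their likeness to Msln, where a high knockout 1 follows from the choice, it was 0.845 for Tmem151a, 0.904 for Akr1c14, 0.883 for Fgd3, 0.837 for Wnt2, 0.911 for Star and 0.859 for Mirt1.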

How the results depend on the processing

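None of the 10 genes was called under any of 20 alternatives, and the smallest adjusted p of a member was 0.597. For Upk1b and Muc16, DESeq2 by genotype alone gave no adjusted p, so that alternative did not judge them. The count of called genes over the whole table, 1 with limma, was 2 with a pseudocount of 5, 7 with DESeq2, 0 with the replicate block, 2 in edgeR and 50 in DESeq2 once the library set entered the model, and 0 in knockout 2, 3 and 4 against wild type 2 alone. Leaving out each library in turn gave 0 to 2.

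The sign of the genotype difference was less stable: of 200 values over the 10 genes, 52 had the opposite sign. That share understates the instability, since changing the filter or dropping the mean trend cannot change a limma difference. Krt8 (-1.07 to -0.34) and Krt18 (-1.46 to -0.33) never changed sign. EdgeR and DESeq2 gave, as log2 differences, 0.16 and 0.15 for Msln, 0.27 and 0.26 for Upk3b, 0.076 and 0.065 for Upk1b, 0.26 and 0.25 for Lrrn4, and 0.54 and 0.53 for Muc16. Fits that held the library set gave, in limma, edgeR and DESeq2, 0.21, 0.20 and 0.20 for Msln, 0.26, 0.27 and 0.25 for Upk3b, 0.15, 0.16 and 0.14 for Upk1b, 0.20, 0.14 and 0.13 for Lrrn4, 0.12, 0.13 and 0.12 for Krt19, and 0.59, 0.80 and 0.67 for Muc16. Without knockout 1 and wild type 1, the difference was -0.41 for Gpm6a, -0.60 for Wt1 and 0.15 for Krt19. The cause was not tested.

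Leaving out single libraries gave -0.96 to 0.27 for Msln, -0.76 to 0.24 for Upk3b, -1.51 to 0.41 for Upk1b, -0.25 to 0.53 for Wt1, -0.53 to 0.29 for Lrrn4, -0.26 to 0.99 for Gpm6a, -1.37 to 0.64 for Krt19 and -2.61 to 1.34 for Muc16. Where this left 1 wild type library, it was assumed to vary like the knockout libraries.

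Title numbers 1 and 2 occur in both genotypes. With this replicate block the difference was 0.38 for Msln, 0.67 for Upk3b, 0.39 for Upk1b, 0.46 for Lrrn4, 0.085 for Krt19 and 0.96 for Muc16, and 0 genes were called. Deviations from group means correlated at 0.841 and 0.562 across genes in the 2 pairs, and wild type 2 correlated at 0.668 with knockout 3, so the numbers are not shown to pair libraries. Counting error was at most 18.9% for any member and library, in Muc16 at 28 reads, and covers counting only.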
